A study of Mus musculus with 32 samples.

Results

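A set of 7 genes of the naive T cell state and of lymph node homing was followed in donor T cells of a mouse transplantation model: Ccr7, S1pr1, S1pr4, Klf2, Igfbp4, Dapl1 and Rflnb. They were taken by symbol, all 7 were found among the 16741 genes of the deposited table, and all 7 passed the filter on low values. Donor cells came from C57Bl6 mice and were sorted from spleen and lymph nodes as CD4 conventional T cells, CD8 T cells or regulatory T cells (Treg). The allogeneic recipients were Balb/c mice, which differ from the donor at the major histocompatibility genes and develop graft-versus-host disease (GVHD). Day 0 denotes cells taken before transplantation (2 libraries each of CD4, CD8 and Treg). Syngeneic denotes cells from untreated control recipients without the mismatch (3 libraries each of CD4 and CD8), allogeneic cells from untreated GVHD recipients (4 each), and Treg-treated cells from GVHD recipients given Treg at day 0 (4 each of CD4 and CD8, and 3 of the Treg). Sample titles put the post-transplantation cells at day 6, and the design text of the series names day 8. The replicate labels carry the name of an experiment, JL019 or JL027. Whether a library pooled several mice, and how cells were gated, is not given in the sources used here, so p-values measure the spread between these libraries. The comparisons ask how far each arm left the naive state of day 0, and whether Treg treatment changed that distance.

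Naive T cells circulate between blood and lymphoid organs. CCR7, a chemokine receptor for CCL19 and CCL21, brings them into lymph nodes, and S1PR1, a receptor for sphingosine-1-phosphate (S1P), lets them leave again, while CD69 on activated cells pulls S1PR1 off the surface. KLF2 is a transcription factor of resting T cells that drives S1pr1, and it is shut down after T cell receptor signalling. S1PR4 is another S1P receptor of lymphocytes. Transcripts of Igfbp4 (a secreted binder of insulin-like growth factors), Dapl1 (a small protein related to death-associated protein 1) and Rflnb (refilin B, a filamin partner) are abundant in naive T cells and are used as markers of them.

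The values are normalised counts, scaled between libraries by the authors. The sequencing depth is unknown, and the mean normalised count per gene of a library lay between 1227 and 2385. Cd4 and Cd8a matched the sorted lineages except in CD4 syngeneic replicate JL019-2, which held Cd4 at 1659 and Cd8a at 1956, had S100a8, a neutrophil gene, as its highest gene (1511210, against at most 44215 in the other 30 libraries) and held Cd3e, a T cell receptor subunit, at 5737 against a lowest value of 14789 elsewhere. A result that uses it is also given without it where that changed a call or moved a called value by over 1.5 times. Foxp3, the defining factor of Treg, lay between 198 and 442 in the 2 libraries labelled Treg day 0 and between 978 and 1145 in those labelled CD4 day 0, so it went against these labels. Every value given against CD4 or Treg day 0 depends on them, and is also given below with these 2 labels exchanged where that turned a direction or changed a call. In the treated recipients it lay between 265 and 293 in libraries labelled Treg and between 127 and 178 in CD4 cells. CD4 allogeneic libraries held 337 to 579, above every treated Treg library, and CD8 allogeneic libraries 103 to 453. The exchange rests on Foxp3 alone. Whether the labels or the measurement of Foxp3 account for its levels was not tested. The name Treg is used below as the labels give it. In these bulk samples, fewer cells with a transcript and less of it per cell cannot be told apart.

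The promoters of 3 of the genes are shown because their transcripts moved in different directions under Treg treatment: Dapl1 and Rflnb were higher in treated than in untreated CD4 cells, and S1pr4 was lower. RefSeq (GRCm38.p6) gave a start site window for 5 of the 7 genes, not for Ccr7 and S1pr1. Each line holds the 250 bases before the annotated start, 5′ to 3′ on the gene's strand, with motif letters in capitals: CACCC, the core bound by KLF factors (GGGTG on the other strand), GTAAACA, the core bound by FOXO factors, and CTTTGA, the core bound by TCF and LEF factors, each searched on both strands.
Dapl1, chr2:59484403-59484652, plus strand: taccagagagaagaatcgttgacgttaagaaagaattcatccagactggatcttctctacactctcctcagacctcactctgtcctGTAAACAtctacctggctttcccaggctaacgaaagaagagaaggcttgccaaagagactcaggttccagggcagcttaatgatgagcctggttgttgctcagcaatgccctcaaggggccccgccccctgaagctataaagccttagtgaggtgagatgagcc
Rflnb, chr11:76027783-76028032, minus strand: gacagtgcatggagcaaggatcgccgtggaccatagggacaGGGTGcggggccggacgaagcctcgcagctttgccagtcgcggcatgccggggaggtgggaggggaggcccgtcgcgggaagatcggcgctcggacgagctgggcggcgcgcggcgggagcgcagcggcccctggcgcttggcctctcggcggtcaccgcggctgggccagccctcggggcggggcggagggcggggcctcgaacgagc
S1pr4, chr10:81500138-81500387, minus strand: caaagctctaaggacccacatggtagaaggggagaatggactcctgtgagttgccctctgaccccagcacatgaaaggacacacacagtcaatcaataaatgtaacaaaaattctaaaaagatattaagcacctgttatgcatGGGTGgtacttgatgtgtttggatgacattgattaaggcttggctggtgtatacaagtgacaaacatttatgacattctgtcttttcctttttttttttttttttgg
The FOXO core was present once, in Dapl1, with its first base 164 bases before the start. It occurs in 3.17% of the 32851 windows of this length. The KLF core was present once in Rflnb, at 209 bases, and once in S1pr4, at 107 bases, and also in Klf2 and Igfbp4, so 4 of 5 windows held it, against 52% of all windows. The Igfbp4 window, chr11:99040994-99041243, lies before a start site inside the gene span given below, not before the first base of that span. None of the 5 held CTTTGA, which is found in 13.8% of windows. A match is a run of letters and no evidence of binding. The genes lie apart in the genome, except that Igfbp4 (chr11:99040005-99052655) and Ccr7 (chr11:99144199-99155077) lie close together on chromosome 11, where Rflnb (chr11:76019194-76027782) also lies. S1pr1 is at chr3:115710433-115715055, S1pr4 at chr10:81497745-81500137, Klf2 at chr8:72319062-72321654 and Dapl1 at chr2:59484653-59505020, all annotated as protein-coding.

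Before transplantation all 7 genes were well above 0 in CD4 and CD8 cells. Libraries are listed in the order JL019 then JL027 throughout. Ccr7 was at 36622 and 34189.6 normalised counts in CD4 and at 20003 and 27448 in CD8 cells, and S1pr1 at 23645 and 23103 and at 15000 and 20223. The means of both were higher in CD4 than in CD8 cells, but neither difference passed the test (limma adjusted p = 0.837 and 0.9). The one called difference was in Igfbp4, at 15916 and 14214 in CD4 against 3532 and 4836 in CD8 cells, 3.64-fold lower in CD8 (log2 -1.86 ± 0.50, SE, limma adjusted p = 0.0322). A gene is called here when its Benjamini-Hochberg adjusted p over all 16741 genes is under 0.05, and 3.32% of all genes were called between these groups. The call was lost when any 1 of the 4 day 0 libraries was left out (limma adjusted p = 0.105 to 0.243), and with the CD4 and Treg day 0 labels exchanged its direction turned (0.42, limma adjusted p = 0.75). Dapl1 had the opposite order, with 3226 and 2689.5 in CD4 and 4248 and 5840.4 in CD8 cells (limma adjusted p = 0.656). Klf2 was at 11906 and 10158 in CD4 and at 8327 and 8484 in CD8 cells, S1pr4 at 2794 and 2418 and at 1845 and 2589.7. Rflnb was at 4696 and 4217 in CD4 and at 2275 and 2977 in CD8 cells. With the labels exchanged, Dapl1 (4.14, limma adjusted p = 7.04e-07) and Rflnb (1.45, limma adjusted p = 5.76e-04) were called higher in CD8 cells. Marker sums of other cells also differed between CD8 and CD4 day 0 libraries without overlap, and their part was not tested. The erythroid sum was 30217 to 34236 in CD8 against 511 to 1195 in CD4 libraries (2 of 7 markers called, both higher), the B cell sum 56708 to 66257 against 37513 to 42414 (2 of 11, both higher) and the NK cell sum 777 to 818 against 395 to 436 (2 of 5, both higher). The myeloid sum was 3634 to 4990 against 786 to 1662 and the endothelial and stromal sum 2462 to 2995 against 4681 to 5211, with 0 markers called by limma in either (3 and 2 under 0.05 before adjustment).

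**Figure D1:**
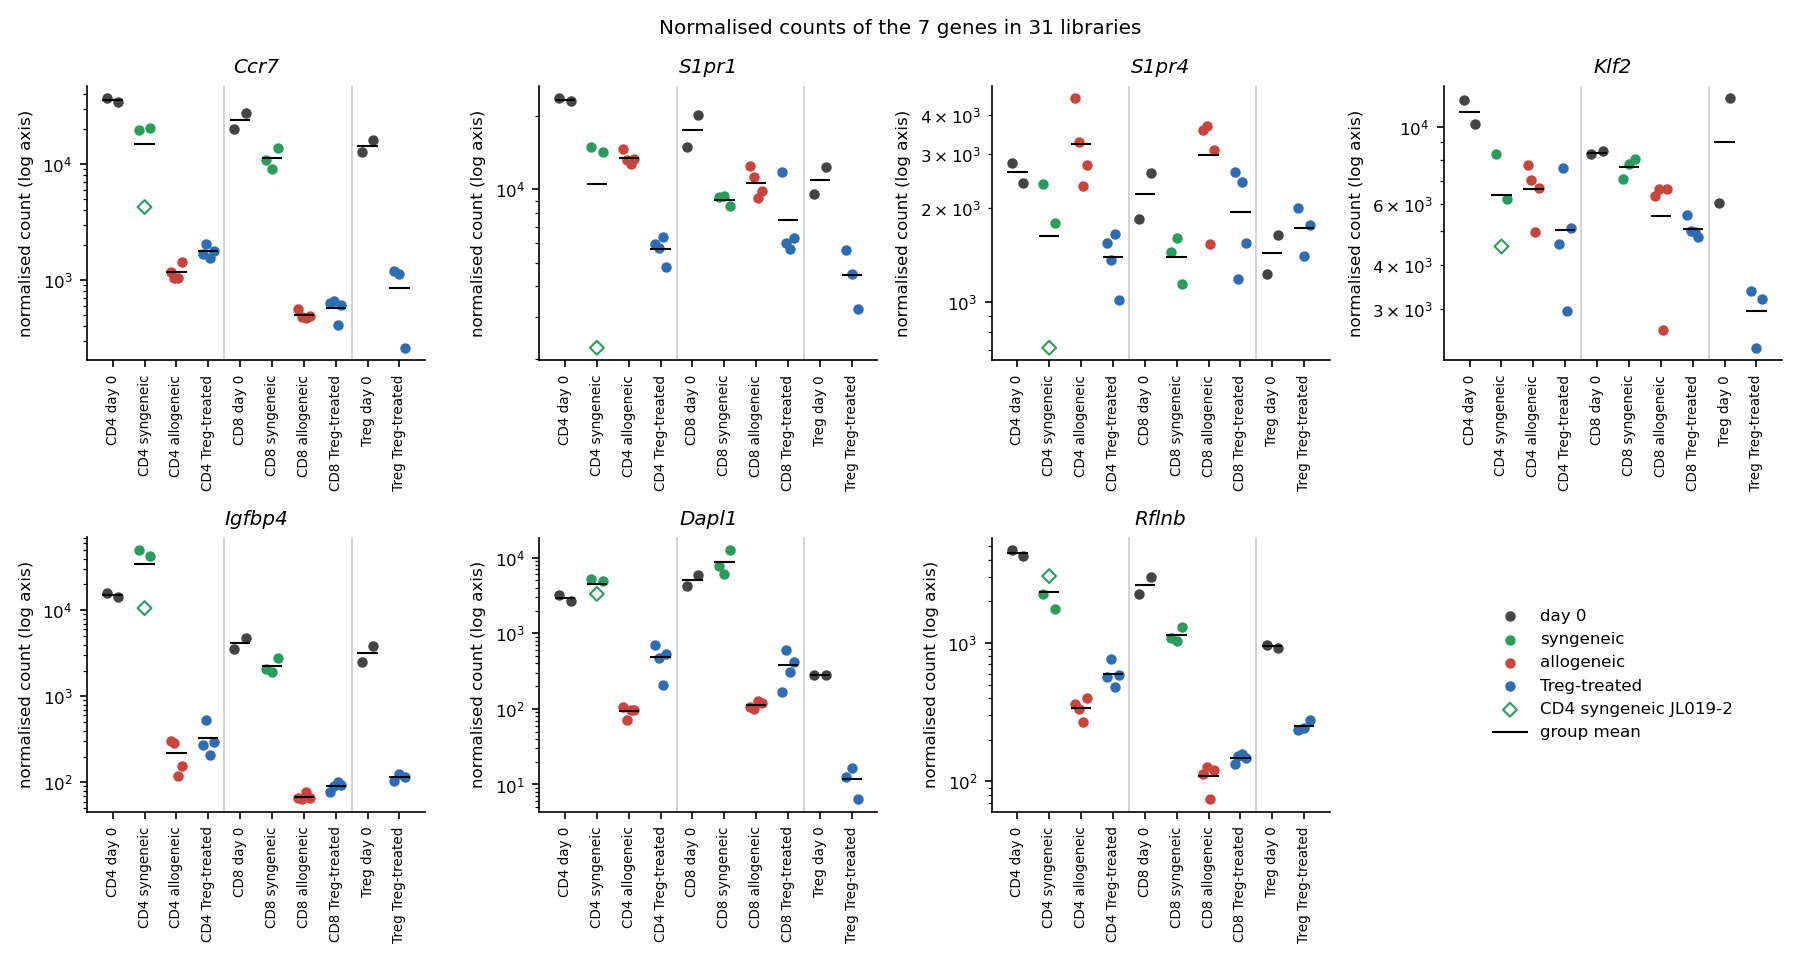
Normalised counts (log axis) of each of the 7 genes in the 31 libraries, by cell type and arm; points are libraries, bars are group means, and the open diamond is CD4 syngeneic replicate JL019-2. Ccr7, Igfbp4, Dapl1 and Rflnb drop in allogeneic cells far below day 0 and syngeneic cells, while S1pr1, S1pr4 and Klf2 stay within the same order of magnitude.

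In allogeneic CD4 cells 4 of the 7 genes fell to a small remainder of day 0, and the other 3 did not pass the test. Ccr7 was at 1177, 1048, 1036 and 1416 in the 4 libraries, 3.3% of the day 0 mean and 30.5-fold lower (log2 -4.93 ± 0.47, limma adjusted p = 5.13e-09). Igfbp4 was at 305, 288, 119 and 157, 1.44% of day 0 and 74.3-fold lower (limma adjusted p = 1.37e-11). No allogeneic library overlapped a day 0 library for either gene. Dapl1 was at 106, 71.9, 97.7 and 98, 31.5-fold lower (limma adjusted p = 5.99e-10). Rflnb was at 363, 331, 270.5 and 403, 13.1-fold lower (limma adjusted p = 3.17e-12). The called share was 4 of 7, all lower, against 24% of all genes in either direction and 9.61% lower, and the median log2 change was -3.71 over the 7 genes and -0.04 over all genes. Within experiment JL019 the log2 changes of these 4 genes were -5.74 to -3.76 and within JL027 -6.69 to -3.67, and the 4 were called under each of the 19 alternatives. With the CD4 and Treg day 0 labels exchanged, all 4 were still lower but by less: Ccr7 and Igfbp4 stood at 8.19% and 6.87% of the libraries labelled Treg day 0, and Dapl1 and Rflnb at 33.3% and 36% (log2 -1.59 and -1.49, limma adjusted p = 0.006 and 3.01e-05). Of all 16741 genes, 4572 were then called, against 4013 with the labels as given.

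The S1P receptors and Klf2 had means between 57.8% and 124% of day 0. S1pr1 was at 14664, 13240.3, 12740.3 and 13385 in allogeneic CD4 cells, 57.8% of day 0, and the log2 difference of -0.79 had a 95% interval of -1.70 to 0.11 (limma adjusted p = 0.218). Klf2, which drives S1pr1, was at 7750.4, 7037, 4998 and 6656, 59.9% of day 0, with a log2 difference of -0.75 and an interval of -1.45 to -0.05 (limma adjusted p = 0.117). Both genes were lower in every allogeneic library than in either day 0 library, and neither was called. S1pr4 was at 4514, 3259.8, 2359 and 2753, 124% of day 0, and its libraries overlapped those of day 0 (interval -0.54 to 1.07). S1pr1 and Klf2 crossed the threshold when the spread was estimated otherwise: with only these groups in the model S1pr1 had a limma adjusted p of 2.02e-04 and Klf2 one of 0.00354, and with array weights 9.08e-04 and 0.00196, at nearly the same log2 difference. With quantile normalisation Klf2 was called as well (-1.19). With the day 0 labels exchanged, S1pr4 was called higher (225% of day 0, log2 1.14, limma adjusted p = 0.031), and S1pr1 and Klf2 stood at 123% and 73.2%, with neither called. In the groups compared, 6 of the 7 genes did not overlap, as did 55.1% of all genes.

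Allogeneic CD8 cells had the same 4 genes called. Ccr7 was at 561, 476, 471 and 485 (2.1% of day 0, log2 -5.56 ± 0.47, limma adjusted p = 6.41e-10). Igfbp4 was at 65.4, 63.7, 77.6 and 66.2 (1.63% of day 0, log2 -5.90) and Dapl1 at 106, 99, 129 and 119.7 (2.25%, log2 -5.45). Rflnb was at 112, 127, 74.3 and 121, 4.14% of day 0 and 24.2-fold lower (limma adjusted p = 7.17e-14). The log2 changes of the 4 genes were -5.75 to -4.24 within JL019 and -6.06 to -4.96 within JL027. In this comparison 30.4% of all genes were called, 14.2% as lower. S1pr1 was at 12443, 11218, 9188 and 9808 (60.6% of day 0) and Klf2 at 6314, 6608, 2615 and 6598 (65.8%). S1pr4 was at 3584, 3689.7, 1538 and 3087 (134%). None of these 3 was called (limma adjusted p = 0.223, 0.123 and 0.506). Klf2 was called with quantile normalisation (-1.17, limma adjusted p = 0.00786), S1pr1 with only these groups in the model (limma adjusted p = 0.0281), and S1pr4 as higher with the library mean as a covariate (1.02, limma adjusted p = 0.0353). By the limma test of the difference between CD8 and CD4 cells in this change, 0 of the 7 genes were called, while 0.962% of all genes were. Before adjustment 1 of the 7 was under 0.05. That gene was Rflnb, with a difference of -0.89 (95% interval -1.58 to -0.19, limma adjusted p = 0.346). With the CD4 and Treg day 0 labels exchanged, Dapl1 (-3.86, limma adjusted p = 1.02e-04) and Rflnb (-3.11, limma adjusted p = 5.17e-07) were called for this difference.

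Markers of other cells moved with the day 0 comparisons. The summed level of 11 B cell markers was 37513 to 42414 in CD4 day 0 libraries and 10264 to 14177 in allogeneic ones, and 56708 to 66257 and 9503 to 11682 in CD8 cells. Most of this was Ighm. Of the 11 markers, 1 was called higher and 5 lower in CD4 cells, and 0 higher and 7 lower in CD8 cells. The gene called higher was Cd22, at 131 to 142 at day 0 and 753 to 1178 in allogeneic CD4 cells (log2 2.72, limma adjusted p = 1.83e-04), so that the sums without Ighm were 700.3 to 903 and 1024 to 1522 in CD4 cells, and 2638 to 3442 and 1185 to 1328 in CD8 cells. Among the defining markers in CD4 cells, Cd79a was at 109 to 145 against 9.69 to 25.7, Ms4a1 at 61.9 to 83.6 against 9.53 to 17.6, and Pax5 at 5.22 to 20 against 5.05 to 27.5. In CD8 cells Cd79a was at 247 to 316 against 6 to 16, Ms4a1 at 202 to 331 against 0.922 to 12.9, and Pax5 at 17.1 to 43.6 against 0 to 3.06. These markers were lower in each allogeneic library than at day 0 in both cell types, apart from Pax5 in CD4 cells. B cells also express Ccr7, Klf2 and S1pr1, and the part of these markers in the changes was not tested. The sum of 13 myeloid markers was 786 to 1662 at day 0 and 4956 to 10602 in allogeneic CD4 cells, with Cd14 and C1qa at 0 in both CD4 day 0 libraries. The sum of 5 NK cell markers was 395 to 436 and 208 to 260.5 in these groups, that of 6 endothelial and stromal markers 4681 to 5211 and 3608 to 4312, and that of 7 erythroid markers 511 to 1195 and 428 to 10792. In CD8 cells the myeloid sum was 3634 to 4990 at day 0 and 4636 to 8928 in allogeneic libraries, with 3 markers higher and 4 lower. The NK cell sum was 777 to 818 and 862 to 1467, higher without overlap, although 3 of the 5 markers were called lower and 0 higher. The erythroid sum was 30217 to 34236 and 564 to 14788, with 2 markers lower, and the endothelial and stromal sum 2462 to 2995 and 2598 to 2987, with 2 lower. The part of these sums was not tested either.

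**Figure D2:**
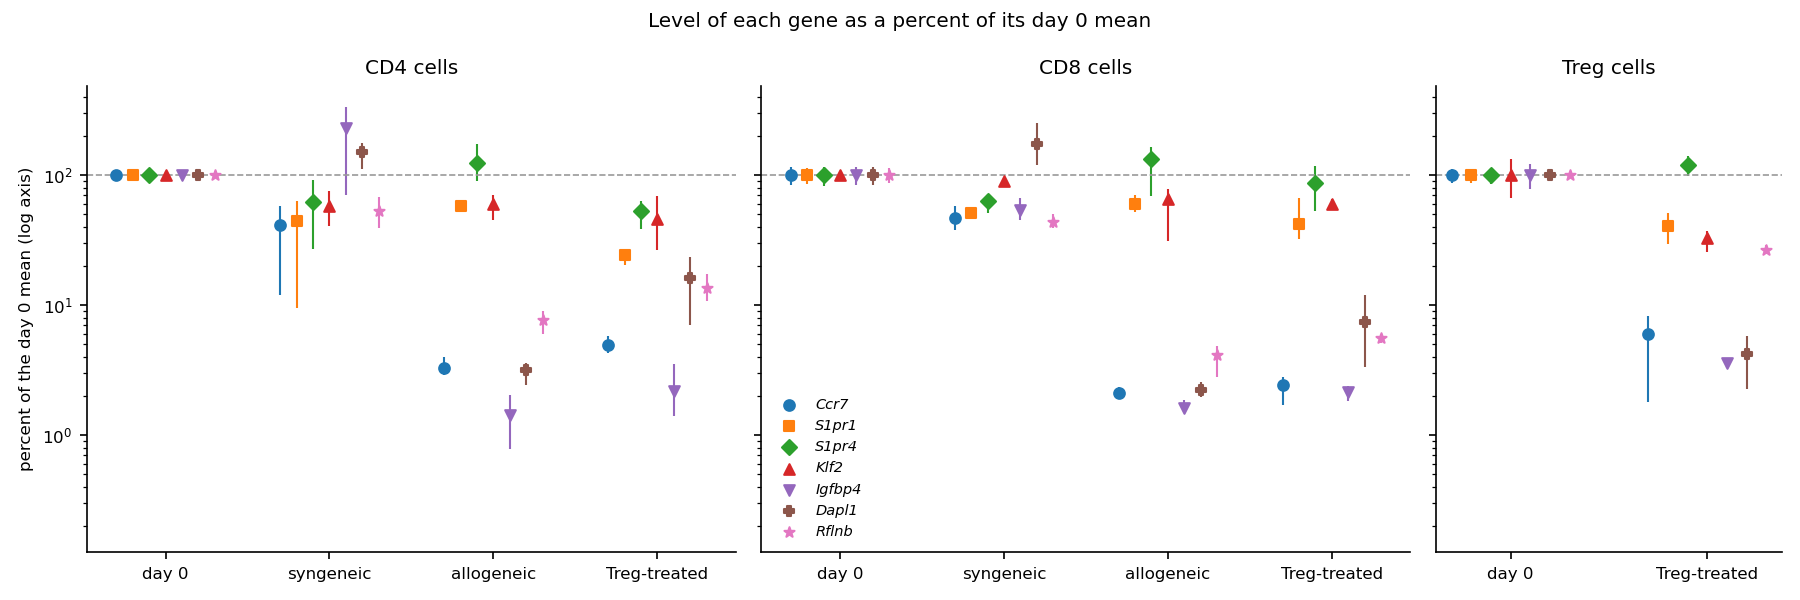
Mean level of each of the 7 genes as a percent of the day 0 mean of the same cell type as labelled (log axis), with lines from the lowest to the highest library; the dashed line is day 0. Ccr7, Igfbp4, Dapl1 and Rflnb lie between 1.44% and 7.67% of day 0 in allogeneic CD4 cells, whereas S1pr1, Klf2 and S1pr4 lie between 57.8% and 124%.

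Against the day 0 libraries as labelled, syngeneic cells held Ccr7, Igfbp4, Dapl1 and Rflnb nearer to their day 0 levels than allogeneic cells did. Ccr7 was at 19451, 4246 and 20487 in CD4 cells, where the middle value is the library that stands apart, and at 10859, 8998 and 13757 in CD8 cells. These are 41.6% and 47.2% of day 0, and 56.4% in CD4 cells without that library. The CD4 difference was called with it (-1.57, limma adjusted p = 0.0355) and not without it (-0.83, limma adjusted p = 0.299), and the CD8 difference was not called (-1.09, limma adjusted p = 0.107). S1pr1 was at 14944, 2234 and 14292 in CD4 cells, with a call (-1.58) that was lost without JL019-2 (-0.68, limma adjusted p = 0.155). In CD8 cells it was at 9305, 9399 and 8509 (limma adjusted p = 0.133). Rflnb was the gene called lower in both cell types. It was at 2254, 3041 and 1753 in CD4 cells (-0.96, limma adjusted p = 0.0109) and at 1094, 1028 and 1314 in CD8 cells (-1.19, limma adjusted p = 0.00155). The CD4 call held without JL019-2 (-1.16, limma adjusted p = 0.00311), but not when either day 0 library was left out (limma adjusted p = 0.128 without JL019 and 0.0646 without JL027). With the CD4 and Treg day 0 labels exchanged the direction of Rflnb in CD4 cells turned, to 247% of day 0 (log2 1.27, limma adjusted p = 6.50e-04), and Ccr7 and S1pr1 stood at 103% and 95.8%, with neither called.

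Igfbp4 and Dapl1 had higher means in syngeneic than in day 0 CD4 cells. Igfbp4 was at 50386, 10627 and 43026, 230.2% of day 0, which was not called with all 3 libraries (0.92, limma adjusted p = 0.196) and was called higher without JL019-2 (310% of day 0, 1.63, limma adjusted p = 0.00387). In CD8 cells it was at 2077, 1908 and 2806, 54.1% of day 0 (-0.89, limma adjusted p = 0.15). The difference between these changes, CD8 minus CD4, was -1.81 with all libraries (limma adjusted p = 0.133) and -2.52 without JL019-2 (limma adjusted p = 0.00356). It was also called with all libraries under array weights (-2.53, limma adjusted p = 1.38e-04) and with the CD4 and Treg day 0 labels exchanged (-4.09, limma adjusted p = 1.41e-04). With all libraries limma called 0 of the 7 genes for this difference and 3.63% of all genes, and 1 of the 7 was under 0.05 before adjustment. Dapl1 was at 5275, 3317 and 4895 in CD4 and 7736, 6079 and 12657 in CD8 cells, above every day 0 library of its cell type, at 152% and 175% of day 0 (172% in CD4 cells without JL019-2). Neither difference was called (limma adjusted p = 0.431 and 0.21). With the day 0 labels exchanged, Igfbp4 (log2 3.20, limma adjusted p = 1.01e-05) and Dapl1 (log2 3.97, limma adjusted p = 2.21e-07) were called higher in syngeneic CD4 cells, and Dapl1 was then further from day 0 in syngeneic than in allogeneic cells. Dapl1 (-3.21) and Rflnb (-2.46) were then also called for the difference between CD8 and CD4 cells (limma adjusted p = 0.00164 and 4.67e-05). Klf2 was at 8352, 4530.2 and 6205 in CD4 and at 7064, 7808 and 8077 in CD8 cells. These means were 57.7% of day 0 in CD4 and 91% in CD8 cells, and S1pr4 at 62.5% and 63%, none of them called. Without JL019-2 the CD4 values were 66% for Klf2 and 80.2% for S1pr4. In all, 3 of the 7 genes were called in CD4 cells (2 without JL019-2) against 13% of all genes, and 1 in CD8 cells against 24.2%. When either CD4 day 0 library was left out, 0 were called.

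Marker sums of other cells differed widely between syngeneic and day 0 libraries, and their part in these changes was not tested. The myeloid sum was 77469 to 3579020 in syngeneic against 786 to 1662 in day 0 CD4 libraries, with 10 of 13 markers called higher and 0 lower, and 37543 to 61673 against 3634 to 4990 in CD8 cells, with 2 higher and 0 lower. The B cell sum was 22683 to 28267 against 56708 to 66257 in CD8 cells, with 1 of 11 markers higher and 9 lower, and 18582 to 40297 against 37513 to 42414 in CD4 cells, with 0 higher and 1 lower. The NK cell sum was 2853 to 4864 against 777 to 818 in CD8 cells, with 1 of 5 markers higher and 1 lower, and 75.1 to 1738 against 395 to 436 in CD4 cells, with 0 higher and 1 lower. The erythroid sum was 4577 to 464853 against 511 to 1195 in CD4 cells, with 5 of 7 markers higher, and 3223 to 10892 against 30217 to 34236 in CD8 cells, with 2 lower. The endothelial and stromal sum was 1418 to 3996 against 4681 to 5211 in CD4 and 1039 to 1573 against 2462 to 2995 in CD8 cells. Of these ranges, those of the B cell and NK cell sums in CD4 cells overlapped, through JL019-2. Without it the syngeneic CD4 sums were 77469 to 83027 for the myeloid (6 markers higher, 0 lower), 4577 to 20516 for the erythroid (0 called by limma) and 3636 to 3996 for the endothelial and stromal markers (0 called by limma). The B cell sum was then 18582 to 22862, with 0 markers higher and 3 lower, and the NK cell sum 75.1 to 92.8, with 0 higher and 1 lower, both below every day 0 library.

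Set against syngeneic cells, the allogeneic arm had 4 of the 7 genes lower and S1pr4 higher in both cell types, against 14.6% of all genes called in CD4 cells (7.91% lower, 6.69% higher) and 21.1% in CD8 cells (10.7% lower, 10.4% higher). Igfbp4 differed by log2 -7.13 ± 0.38 in CD4 cells, 140-fold lower (limma adjusted p = 7.59e-13), by -7.84 without CD4 syngeneic replicate JL019-2, and by -5.02 in CD8 cells. The CD8 change was smaller than the CD4 change by 2.12 ± 0.54 (limma adjusted p = 0.0201; 2.83 without JL019-2), the one such difference called among the 7 genes, where 4.65% of all genes were called. It was not called without CD4 syngeneic replicate JL019-1 or JL027 or CD8 syngeneic replicate JL019-1 or JL019-2 (limma adjusted p = 0.0504 to 0.0627). Ccr7 differed by -3.36 in CD4 (-4.10 without JL019-2) and -4.47 in CD8 cells. Dapl1 differed by -5.56 (-5.76 without JL019-2) and -6.21, and Rflnb by -2.76 (-2.55) and -3.41. All 4 of these genes were called in both cell types under each of the 19 alternatives of each comparison. S1pr4 was higher by 1.11 in CD4 cells (limma adjusted p = 0.0279) and 1.03 in CD8 cells (limma adjusted p = 0.034), with syngeneic values of 2392, 709.7 and 1786 and 1445, 1607 and 1136. The CD4 call was lost without JL019-2 (0.60, limma adjusted p = 0.327) and without allogeneic replicate JL019-1 or JL019-2 (limma adjusted p = 0.106 and 0.0583). The CD8 call was lost without allogeneic replicate JL019-1, JL019-2 or JL027-2, or syngeneic replicate JL019-1 or JL027 (limma adjusted p = 0.0736 to 0.150). S1pr1 and Klf2 were not called in either cell type. In CD4 cells S1pr1 was called higher than syngeneic when JL019-1 or JL027 was left out (1.25 and 1.22), which gives JL019-2 more weight, and differed by -0.12 without JL019-2 (limma adjusted p = 0.875). The comparisons of allogeneic with day 0, syngeneic and Treg-treated cells share the allogeneic libraries, so they are not separate evidence. Marker sums of other cells moved with these comparisons, and their part was not tested. The myeloid sum was 77469 to 3579020 in CD4 and 37543 to 61673 in CD8 syngeneic cells, against 4956 to 10602 and 4636 to 8928 in allogeneic ones. The B cell sum was 18582 to 40297 in CD4 and 22683 to 28267 in CD8 syngeneic cells, against 10264 to 14177 and 9503 to 11682. In CD8 cells the NK cell sum was 2853 to 4864 in syngeneic and 862 to 1467 in allogeneic libraries, and the endothelial and stromal sum 1039 to 1573 and 2598 to 2987. None of these ranges overlapped. Without JL019-2 the CD4 syngeneic sums were 77469 to 83027 for the myeloid and 18582 to 22862 for the B cell markers, and the NK cell sum of 75.1 to 92.8 then lay below the 208 to 260.5 of the allogeneic libraries.

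Treg-treated CD4 cells differed from untreated allogeneic ones in 4 of the 7 genes, 2 in each direction, where 22.2% of all genes were called (10.7% higher, 11.5% lower). Dapl1 was at 695, 476, 209 and 534 in Treg-treated CD4 cells against 106, 71.9, 97.7 and 98 in allogeneic ones, 4.7-fold higher (log2 2.23 ± 0.35, limma adjusted p = 0.00107). Every treated library lay above every untreated one, and the call held under all 20 alternatives. Within experiment JL019 the difference was 2.70 and within JL027 1.76. It reached 16.2% of the libraries labelled CD4 day 0, 6.71-fold below them (limma adjusted p = 1.22e-05). This direction depends on the labels: against the libraries labelled Treg day 0 (mean 281) the treated mean of 478 was 170.4%, a difference that was not called (log2 0.64, limma adjusted p = 0.226). Rflnb was at 563, 771, 484 and 585 against 363, 331, 270.5 and 403, 1.75-fold higher (log2 0.81 ± 0.20, limma adjusted p = 0.0123), without overlap, and stood at 13.5% of the libraries labelled CD4 day 0 and 63.3% of those labelled Treg day 0. Within JL019 it differed by 0.92 and within JL027 by 0.69. Without Treg-treated replicate JL019-2 its limma adjusted p was 0.0560, and Dapl1 was then the 1 gene of the 7 still called. Without allogeneic replicate JL019-1 or Treg-treated replicate JL027-2, 2 were called, Dapl1 and Rflnb.

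Both S1P receptors were lower in treated cells, S1pr1 further from day 0. S1pr1 was at 5971, 5738, 6355 and 4797 against 14664, 13240.3, 12740.3 and 13385, 2.37-fold lower without overlap (log2 -1.25 ± 0.36, limma adjusted p = 0.0195), and went from 57.8% to 24.5% of day 0 (123% to 52.2% with the day 0 labels exchanged). S1pr4 was at 1548, 1358, 1657 and 1015 against 4514, 3259.8, 2359 and 2753, 2.28-fold lower without overlap (log2 -1.19 ± 0.32, limma adjusted p = 0.0157), 53.5% of day 0 (97.4% with the labels exchanged). Within experiment JL019 the S1pr1 difference was -1.25 and within JL027 -1.24, and for S1pr4 -1.40 and -0.97. The call of S1pr1 was lost without allogeneic replicate JL019-1 or JL019-2 or Treg-treated replicate JL019-1, JL019-2 or JL027-2 (limma adjusted p = 0.0507 to 0.0638), and that of S1pr4 without allogeneic replicate JL019-1 or Treg-treated replicate JL019-2 or JL027-2 (limma adjusted p = 0.0559 to 0.0602), with log2 differences from -1.27 to -1.16 for S1pr1 and -1.18 to -1.01 for S1pr4.

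The remaining 3 genes were not called. Ccr7 was at 1684, 2053, 1531 and 1788 against 1177, 1048, 1036 and 1416, so that every treated library was higher, by log2 0.60 (95% interval -0.20 to 1.39, limma adjusted p = 0.271). It was called when only these 2 groups were in the model (limma adjusted p = 0.0298), and stood at 4.98% of day 0 (12.3% with the labels exchanged). Igfbp4 was at 273, 534, 211 and 295 against 305, 288, 119 and 157, with overlap (log2 0.61, interval -0.12 to 1.34, limma adjusted p = 0.215), and was called with array weights (limma adjusted p = 0.0183). Klf2 was at 4602, 7599, 2951 and 5103 against 7750.4, 7037, 4998 and 6656, with overlap (log2 -0.45, interval -1.02 to 0.13, limma adjusted p = 0.253). Of the 7 genes, 5 did not overlap between the arms, as did 22.2% of all genes.

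The mean normalised count of a library moved with this comparison: 1608, 1817, 1964 and 2118 in Treg-treated CD4 libraries against 1504 to 1669 in allogeneic ones. With its log2 as a covariate, Dapl1 was still called (1.81, limma adjusted p = 0.0047), and S1pr1 (-0.83, limma adjusted p = 0.158), S1pr4 (-0.79, limma adjusted p = 0.117) and Rflnb (0.61, limma adjusted p = 0.0605) were not. The sum of the myeloid markers was 23299 to 85939.7 in treated and 4956 to 10602 in untreated CD4 cells, and 2 of these 13 markers were called higher and 0 lower. Those called were S100a8 (2.43, limma adjusted p = 0.0321) and S100a9 (2.38, limma adjusted p = 0.0355). Lyz2, a gene of macrophages and neutrophils, was at 2435 to 13044 against 975 to 1876, while the macrophage markers Csf1r and Adgre1 were at 3.23 to 28.5 and 2.17 to 23.3 against 4.95 to 25.9 and 2.14 to 29.4. The endothelial and stromal sum was lower without overlap, 1404 to 3204 against 3608 to 4312, most of it Pecam1 (-1.01, limma adjusted p = 0.0277). The B cell sum was higher without overlap, 14911 to 18066 against 10264 to 14177. The erythroid sum was 5456 to 62486 against 428 to 10792, and the NK cell sum 162 to 338 against 208 to 260.5, both with overlap. The NK cell marker Ncr1 was called higher (2.20, limma adjusted p = 0.0302), with means of 30.3 in treated and 5.9 in untreated cells. The part of these markers in the changes of the 7 genes was not tested.

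**Figure D3:**
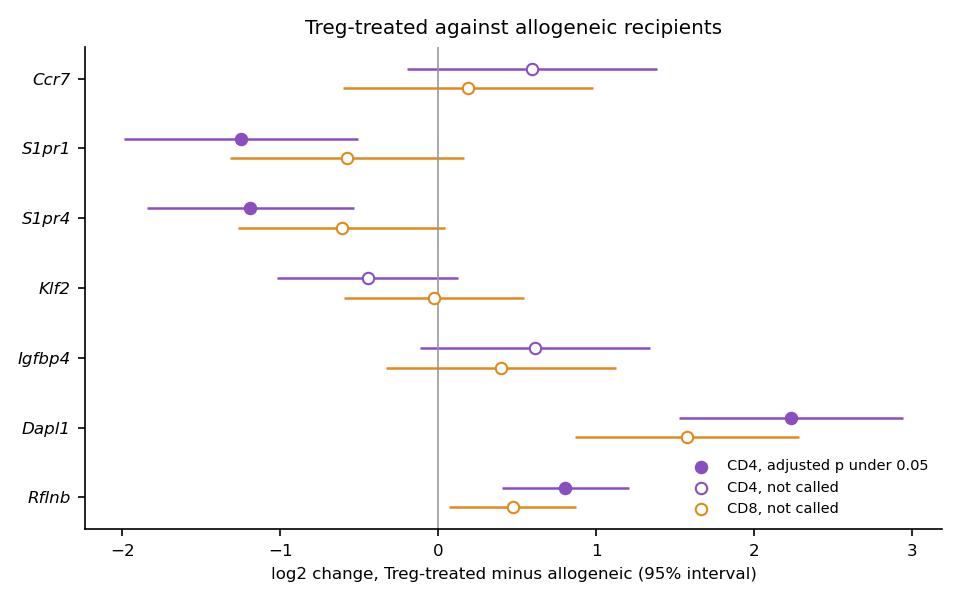
Log2 change of each of the 7 genes between Treg-treated and allogeneic recipients, with 95% intervals, in CD4 (purple) and CD8 cells (orange); filled points passed an adjusted p of 0.05. Dapl1 and Rflnb lie right of 0 and S1pr1 and S1pr4 left of it in CD4 cells, and the CD8 points lie on the same side of 0 but were not called.

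Between Treg-treated and allogeneic CD8 cells limma called 0 of the 7 genes. Before adjustment 2 were under 0.05, and 0.0657% of all genes were called. Dapl1 was at 168, 609, 304 and 419 against 106, 99, 129 and 119.7, higher in every treated library (1.64 within JL019 and 1.52 within JL027), with a log2 difference of 1.58 ± 0.35 (limma adjusted p = 0.075). It was called without Treg-treated replicate JL019-1 (1.91, limma adjusted p = 0.0157), the lowest treated library, and with array weights (limma adjusted p = 0.00706). Rflnb was at 134, 152, 159 and 148 against 112, 127, 74.3 and 121, also without overlap (log2 0.47, limma adjusted p = 0.393). These were the 2 genes of the 7 without overlap, against 4.89% of all genes. S1pr1 was at 11779, 6025, 5686 and 6325, where the first library is as high as the allogeneic ones and the other 3 are below them all (log2 -0.58, limma adjusted p = 0.534). S1pr4 was at 2607, 1185, 2419.6 and 1545 and Klf2 at 5566, 5007, 4993 and 4819. Ccr7 was at 633, 663, 409 and 603, 2.43% of day 0 with overlap, and Igfbp4 at 76.8, 92.1, 100.3 and 92.2, 2.16% of day 0. The myeloid sum was 10864 to 29863 in treated against 4636 to 8928 in allogeneic CD8 libraries, without overlap, with 0 of 13 markers called. Of the 5 NK cell markers, 1 was among the 11 genes called, Ncr1 (3.60, limma adjusted p = 0.0448), at 40.4 to 106.9 against 1.72 to 8.67, while the NK cell sum was 631 to 2622 against 862 to 1467. The B cell sum was 11303 to 14799 against 9503 to 11682, the erythroid sum 2567 to 19263 against 564 to 14788, and the endothelial and stromal sum 2222 to 3099 against 2598 to 2987, with 0 markers called. Their part in the values of the 7 genes was not tested.

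Whether the Treg effect differs between CD8 and CD4 cells was tested as a difference of differences, with 0 of the 7 genes called by limma, 0 under 0.05 before adjustment, and 0.00597% of all genes called. The widest difference was in S1pr1, 0.67 with a 95% interval of -0.37 to 1.72, and that of Dapl1 was -0.66 (-1.66 to 0.35). Against day 0, Treg-treated cells had 6 of 7 genes lower in CD4 and 5 in CD8 cells, where 41.1% and 38.4% of all genes were called (18.9% and 18.3% lower). The gene not called in CD4 cells was S1pr4 (log2 -0.92, limma adjusted p = 0.0609). It was called in 4 of 19 alternatives: quantile normalisation (limma adjusted p = 0.017), array weights (limma adjusted p = 2.11e-04), only the groups compared (limma adjusted p = 0.024) and without Treg-treated replicate JL027-1 (limma adjusted p = 0.0472). Those not called in CD8 cells were S1pr4 (-0.25) and Klf2 (-0.72, limma adjusted p = 0.0938). S1pr1 was called in both (-2.04 and -1.29) but not with the library mean as a covariate (limma adjusted p = 0.115 and 0.674). In CD8 cells its call was also lost with libraries centred on their median (limma adjusted p = 0.0535) and without day 0 replicate JL019 or JL027 (limma adjusted p = 0.0647 and 0.147). The call of Klf2 in CD4 cells (-1.20, limma adjusted p = 0.00649) was lost without day 0 replicate JL019 (limma adjusted p = 0.0764). With the CD4 and Treg day 0 labels exchanged, 3 of the 7 were lower in treated CD4 cells, Ccr7 (-3.01), Igfbp4 (-3.32) and Rflnb (-0.68, limma adjusted p = 0.0261), where 6710 of the 16741 genes were called against 6881 with the labels as given. S1pr1 (-0.93, limma adjusted p = 0.0908), Klf2 (-0.83, limma adjusted p = 0.0536) and Dapl1 were not. Against syngeneic cells, 4 genes were lower in treated CD4 and 4 in treated CD8 cells, Ccr7, Igfbp4, Dapl1 and Rflnb in each, where 16.7% and 18.2% of all genes were called (8.43% and 8.63% lower). Without CD4 syngeneic replicate JL019-2, S1pr1 was called as well (-1.36, limma adjusted p = 1.76e-04). Dapl1 differed from syngeneic cells by log2 -3.33 in CD4 and -4.63 in CD8 cells.

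Markers of other cells moved with these comparisons of treated cells as well, and their part was not tested. In CD4 cells the myeloid sum was 23299 to 85939.7 against 786 to 1662 at day 0 (7 of 13 markers higher, 2 lower), the B cell sum 14911 to 18066 against 37513 to 42414 (1 of 11 higher, 4 lower) and the erythroid sum 5456 to 62486 against 511 to 1195 (4 of 7 higher, 0 lower). The endothelial and stromal sum was 1404 to 3204 against 4681 to 5211 (0 of 6 higher, 1 lower), and the NK cell sum 162 to 338 against 395 to 436 (1 of 5 higher, 1 lower). None of these ranges overlapped. In CD8 cells the myeloid sum was 10864 to 29863 against 3634 to 4990 (4 higher, 4 lower), the B cell sum 11303 to 14799 against 56708 to 66257 (0 higher, 8 lower) and the erythroid sum 2567 to 19263 against 30217 to 34236 (0 higher, 2 lower), all without overlap. The NK cell sum, 631 to 2622 against 777 to 818 (1 higher, 2 lower), and the endothelial and stromal sum, 2222 to 3099 against 2462 to 2995 (0 higher, 2 lower), overlapped. Against syngeneic CD8 libraries the treated ones had lower myeloid, B cell and NK cell sums and a higher endothelial and stromal sum, all without overlap. Against syngeneic CD4 libraries the B cell sum was lower without overlap. Without JL019-2 the endothelial and stromal sum was also lower there and the NK cell sum higher without overlap, while the myeloid sums, 23299 to 85939.7 and 77469 to 83027, overlapped.

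The libraries labelled Treg day 0 had 3 of the 7 genes lower than those labelled CD4 day 0. Dapl1 was at 278 and 284 in Treg against 3226 and 2689.5 in CD4 cells, 10.5-fold lower (limma adjusted p = 6.40e-05). Igfbp4 was at 2486 and 3846, 4.86-fold lower (limma adjusted p = 0.00632), and Rflnb at 974 and 925, 4.68-fold lower (limma adjusted p = 6.49e-06). These 3 of 7 genes were called, against 3.89% of all genes (1.34% lower). The Igfbp4 call was lost without CD4 or Treg day 0 replicate JL019 (limma adjusted p = 0.0829 and 0.125). Ccr7 was at 12569.5 and 16001 and S1pr1 at 9579 and 12315, below both CD4 libraries. Neither was called (limma adjusted p = 0.224 and 0.3), though both were with only these groups in the model (limma adjusted p = 0.00121 and 0.00302). Klf2 was at 6031 and 12036 and S1pr4 at 1227 and 1635. The levels of Foxp3 given above go against the labels of these 2 groups at day 0. Marker sums of other cells differed as well. In Treg against CD4 libraries the B cell sum was 30371 to 33094 against 37513 to 42414, and the myeloid sum 2627 to 3297 against 786 to 1662. The endothelial and stromal sum was 2819.5 to 3611 against 4681 to 5211, and the erythroid sum 118 to 456 against 511 to 1195. The NK cell sums, 277 to 437 and 395 to 436, overlapped. Their part in the differences was not tested.

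In the Treg of treated recipients 5 of the 7 genes fell from the libraries labelled Treg day 0, where 13.3% of all genes were called (4.89% lower). Ccr7 was at 1187, 1127 and 259.9 (log2 -4.33 ± 0.50, limma adjusted p = 4.36e-07), Igfbp4 at 105, 124 and 115 (-4.74, limma adjusted p = 2.76e-08) and Dapl1 at 12.7, 16.4 and 6.37 (-4.54, limma adjusted p = 3.78e-08), the lowest Dapl1 of the 10 groups. Klf2 was at 3375, 2319.8 and 3191 (-1.54, limma adjusted p = 0.00365), and its call was lost without Treg day 0 replicate JL027 (limma adjusted p = 0.163). Rflnb was at 236, 245 and 276 (-1.91). S1pr1 was at 5657, 4485 and 3220.5 and was not called (-1.32, limma adjusted p = 0.0594; 0.00315 with only these groups in the model), and S1pr4 was at 2000.2, 1405 and 1762 (0.27, limma adjusted p = 0.754). The difference between Treg and CD4 cells in this change passed the limma test for 0 of the 7 genes and for 4.71% of all genes, and 3 of the 7 were under 0.05 before adjustment. For this difference Dapl1 (-1.80, limma adjusted p = 0.0832) was called in 4 of 24 alternatives, among them with the recipient as a block. With the CD4 and Treg day 0 labels exchanged, S1pr1 was called as well in Treg (-2.43, limma adjusted p = 2.74e-04), making 6 of the 7 lower. The difference between Treg and CD4 cells was then called for Ccr7 (-2.64), Igfbp4 (-3.70), Dapl1 (-8.57) and Rflnb (-3.46). The NK cell sum was 50.6 to 92.1 in treated Treg against 277 to 437 in Treg day 0 libraries, with 3 of 5 markers lower, and the erythroid sum 1682 to 50373 against 118 to 456, with 4 of 7 higher, both without overlap. The myeloid sum was 1139.9 to 6218 against 2627 to 3297, the B cell sum 27637 to 39746 against 30371 to 33094, and the endothelial and stromal sum 2353 to 3706 against 2819.5 to 3611, all with overlap. The part of these markers was not tested.

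Within the Treg-treated recipients, 4 of the 7 genes were lower in Treg than in CD4 cells, where 30% of all genes were called (16.1% lower). Dapl1 differed most, 36.4-fold (log2 -5.19 ± 0.37, limma adjusted p = 1.17e-10), and Igfbp4 and Rflnb by -1.42 and -1.23. Ccr7 was called too (-1.32, limma adjusted p = 0.0189), but this rests on Treg replicate JL027 at 259.9, without which the difference was -0.60 (limma adjusted p = 0.261). Leaving out the CD4 library JL019-2 of the treated arm gave a limma adjusted p of 0.0521. S1pr1, S1pr4 and Klf2 were not called. Klf2 (-0.71, limma adjusted p = 0.0737) was called in 4 of 19 alternatives: with libraries centred on their median (-0.93, limma adjusted p = 0.0161), with the recipient as a block (-0.75, limma adjusted p = 0.0447), with array weights (-0.87, limma adjusted p = 7.24e-04) and without Treg-treated CD4 replicate JL027-1 (-0.95, limma adjusted p = 0.014). Other markers differed between these libraries without overlap: the myeloid sum was 1139.9 to 6218 in Treg and 23299 to 85939.7 in CD4 cells, the B cell sum 27637 to 39746 and 14911 to 18066, and the NK cell sum 50.6 to 92.1 and 162 to 338. Their part in the differences was not tested.

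The order of the groups differed between the genes. Ccr7 placed CD4 day 0 first (mean 35406), then CD8 day 0, CD4 syngeneic, Treg day 0 and CD8 syngeneic, whose neighbouring ranges overlapped. All groups from allogeneic recipients followed, with a gap without overlap between CD8 syngeneic and CD4 Treg-treated cells (1764), another below the latter, and overlap between neighbours among the last 4 groups. Rflnb had the same groups above that gap. For S1pr1 the lowest place was that of Treg-treated Treg (4454), then Treg-treated CD4 (5715) and CD8 cells (7454), each overlapping its neighbour. For S1pr4, CD4 and CD8 allogeneic cells came first (3222 and 2975) and Treg-treated CD4 cells last (1395), with overlap between every pair of neighbours. Klf2 had CD4 day 0 cells first (11032) and Treg-treated Treg last (2962), also with overlap between most neighbours. Igfbp4 placed CD4 syngeneic (34680) and CD4 day 0 cells (15065) above the rest, and CD8 allogeneic cells last (68.2). Dapl1 was led by CD8 syngeneic cells (8824) and closed by Treg-treated Treg, separated from the next group without overlap.

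Over the 31 libraries, which share groups, cell types and experiments and are thus not independent, log2 levels of Ccr7 had a Pearson r of 0.93 with Igfbp4, 0.93 with Rflnb and 0.78 with Dapl1, but 0.50 with S1pr1 and -0.18 with S1pr4. S1pr1 had 0.66 with S1pr4 and 0.69 with Klf2. As a description with no test, the genes most like the mean of all 7 among 13454 with a mean of at least 10 were Tdrp (r = 0.947), Evl (0.932), Lef1 (0.926), a transcription factor of naive T cells, Otud1 (0.917) and Scml4 (0.915). The nearest single gene was Tdrp for Ccr7 (0.96), Ripor2 for S1pr1 (0.932), Prex1 for S1pr4 (0.916) and Opa3 for Klf2 (0.85). For Dapl1 it was Isoc1 (0.95), and for both Igfbp4 (0.955) and Rflnb (0.936) it was Dntt, which encodes terminal deoxynucleotidyl transferase.

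Beside the 7 genes, the other genes of the same pathways were followed from lists, given as counts called higher and lower next to the median log2 change of the list, with the day 0 labels as given (not computed with them exchanged). These counts stand beside the shares of all genes called, which were 24% in allogeneic against day 0 CD4 cells (9.61% lower), 30.4% in CD8 cells (14.2% lower), and 10.7% higher and 11.5% lower in Treg-treated against allogeneic CD4 cells. Where a list's share is near these, its count says nothing of the list. In the group of 20 naive and quiescence factors, 0 were higher and 12 lower in allogeneic against day 0 CD4 cells (median -1.90), and 0 and 10 in CD8 cells (median -1.32), while the median of all genes was -0.04 and -0.13. Il6ra, the interleukin-6 receptor, changed by -5.00 in CD4 and -5.82 in CD8 cells, Foxp1, a factor that holds naive T cells in quiescence, by -1.89 in CD4 cells, and Nsg2 by -5.04 in CD8 cells. In Treg-treated against allogeneic CD4 cells 0 of the 20 were higher and 3 lower (median -0.47), near the 11.5% of all genes that were lower. Among them were Lef1 (-0.85, limma adjusted p = 0.0254) and Tsc1 (-1.21, limma adjusted p = 0.0175), a brake on mTOR signalling. In CD8 cells limma called 0 of the 20, with 2 under 0.05 before adjustment.

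Of 11 genes of lymph node entry around Ccr7, 2 were higher and 1 lower in allogeneic against day 0 CD4 cells (median 0.26), near the 24% of all genes called, and 4 and 0 in CD8 cells (median 0.68), beside 30.4%. Selplg, which encodes a ligand of P-selectin, and Cxcr4, the receptor of CXCL12, were higher by 0.81 and 1.15 in CD4 cells (limma adjusted p = 0.00523 and 0.0179), and the adhesion molecule Icam2 changed by -0.99 (limma adjusted p = 0.0107). Gnai2, the inhibitory G protein subunit through which CCR7 signals, was higher by 1.10 in CD8 cells (limma adjusted p = 2.68e-04). These changes stand beside log2 changes of Ccr7 of -4.93 in CD4 and -5.56 in CD8 cells. In Treg-treated against allogeneic CD4 cells 1 of the 11 was higher and 4 lower (median -0.30). Icam2 rose by 1.10 (limma adjusted p = 0.00739). Dock2 and Elmo1, which carry the chemokine signal to Rac, changed by -1.68 and -0.86 (limma adjusted p = 0.0204 and 0.0176). In CD8 cells limma called 0 of these 11, with 1 under 0.05 before adjustment.

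Of 12 further genes of S1P handling and egress, 1 was higher and 1 lower in allogeneic against day 0 CD4 cells (median -0.36), and 3 and 2 in CD8 cells (median -0.76). Cd69, the antagonist of S1PR1, was higher by 2.11 in CD4 cells (limma adjusted p = 3.93e-05), beside an S1pr1 level of 57.8% of day 0. Mfsd2b, an S1P exporter of erythroid cells, changed by -2.56 and -5.58. Under Treg treatment 4 were lower and 0 higher in CD4 cells (median -0.54), where 11.5% of all genes were lower and 10.7% higher, including the S1P phosphatase Sgpp1 (-1.28, limma adjusted p = 0.0154) and the S1P lyase Sgpl1 (-1.01, limma adjusted p = 0.0222). In CD8 cells 0 of the 12 were called by limma (0 before adjustment). In the KLF family, 13 genes beside Klf2, 1 was higher and 4 lower in allogeneic CD4 cells against day 0 (median -0.72), beside 24% of all genes called and 9.61% lower, and 2 and 4 in CD8 cells (median -0.57), beside 30.4% and 14.2%. Klf3, a repressor that competes with KLF2, changed by -1.41 and -2.07, while Klf11 was higher by 2.38 and 2.54. Klf1, the erythroid member, changed by -2.87 and -5.89. The summed erythroid markers were 30217 to 34236 in CD8 day 0 and 564 to 14788 in CD8 allogeneic libraries. In CD4 cells they were 511 to 1195 at day 0 and 428 to 10792 in allogeneic libraries, with overlap. Their part in the values of Klf1 and Mfsd2b was not tested. In treated CD4 cells 1 of the 13 was called lower, near the share of all genes: Klf11 (-1.57, limma adjusted p = 0.0157).

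Of a list of relatives of Igfbp4 and Rflnb and genes of insulin-like growth factors and their receptor, 4 were measured. In each cell type 1 of these, Igfbp7, was called higher and 1, Igf1r, lower in allogeneic than in day 0 cells. Igfbp7 went against Igfbp4: it was higher by 3.74 in allogeneic CD4 and 3.97 in allogeneic CD8 cells than at day 0, and in Treg-treated CD4 cells it was higher still, by 2.25 (limma adjusted p = 0.00241). Igf1r, the receptor of the growth factors that IGFBP4 binds, changed by -2.19 and -2.94. For contrast with the naive genes, 13 of 15 effector and activation genes were higher in allogeneic than in day 0 CD4 cells (median 2.97) and 14 in CD8 cells (median 2.74), 0 lower in either. Gzmb, which encodes the cytotoxic protease granzyme B, was higher by 7.68 and 9.01, and Ifng by 5.59 and 6.44. In Treg-treated against allogeneic CD4 cells 3 of the 15 were lower and 0 higher (median -0.41), where 11.5% of all genes were lower and 10.7% higher, with Prdm1, the regulator BLIMP1 of terminal differentiation, changed by -1.37 (limma adjusted p = 0.00348) and Cd44 by -0.67 (limma adjusted p = 0.0197), and 0 called in CD8 cells (1 under 0.05 before adjustment by limma).

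**Figure D4:**
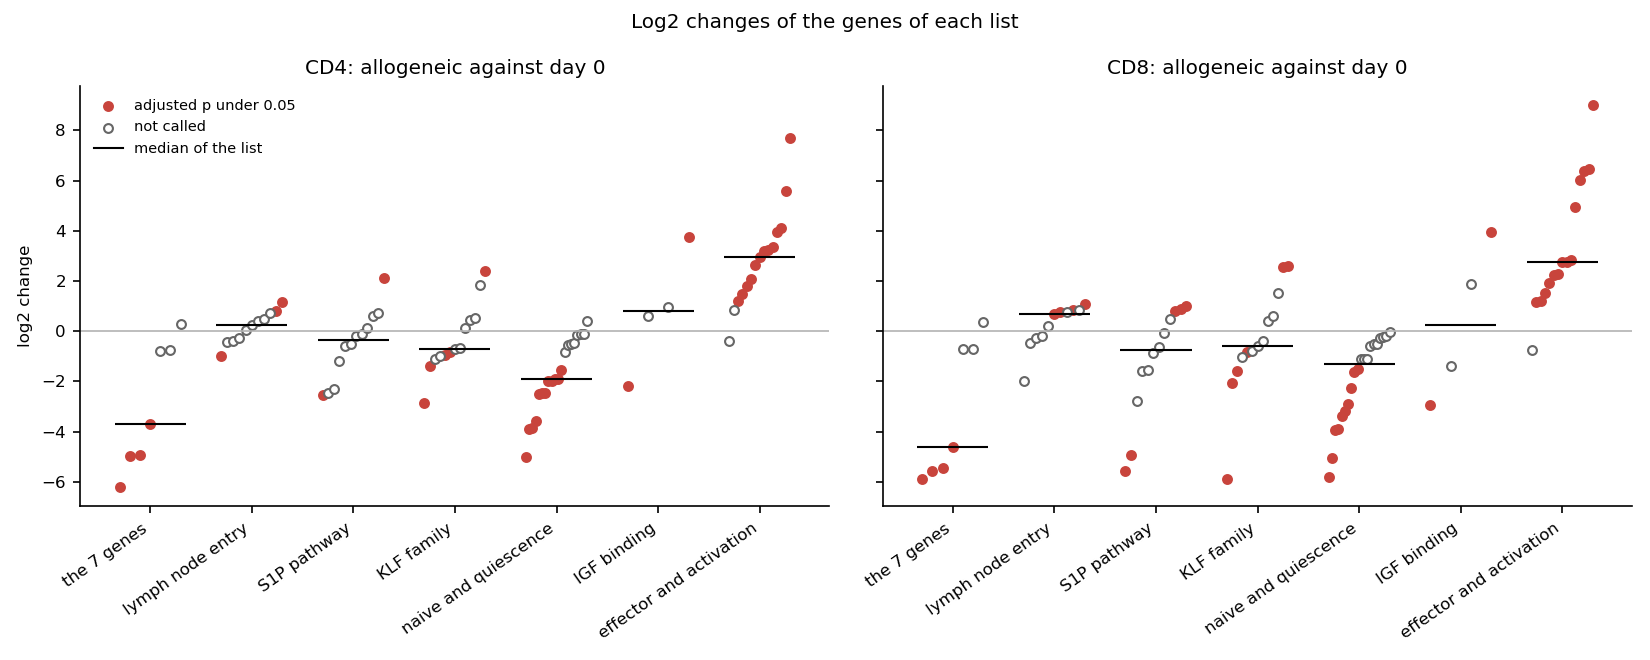
Log2 change between allogeneic and day 0 cells for each gene of the pathway lists and for the 7 genes, in CD4 and CD8 cells; points are genes, filled where called, and the line at 0 is no change. Most naive and quiescence factors lie below 0 and most effector genes above it, with the entry, S1P and KLF lists on both sides.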

How the data were processed

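RNA from CD4, CD8 and Treg samples of 10 groups (31 libraries) was measured; 1 further sample, of receptor sequencing, has no group and was not used here. Per the labels' protocols, RNA was extracted with TRIzol and RNeasy MinElute columns, amplified as full-length cDNA (SMARTer v4) and made into libraries with Nextera XT. The submitters' processing notes name FastQC 0.11.7, kallisto, DESeq2 and the builds GRCm38 and mm10, without roles. The deposited table holds a signal per gene, normalised counts scaled by the authors. They are not whole, so reads and depth could not be recovered, and the model for normalised values was used. The T cell receptor tables deposited by the authors gave the experiment names and were otherwise not used. Amplified full-length cDNA without molecular identifiers leaves PCR duplicates in the values.

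log2(value + 1) of all 16741 genes (1 without a symbol) was fitted in limma 3.58.1 (R 4.3.3) with 1 mean per group, moderated with a trend and robustly. The filter, a mean of at least 1, removed none. Log2 differences are on this scale, with standard errors, 95% intervals and limma p-values adjusted by Benjamini-Hochberg over all genes, and differences between cell types are contrasts of the same model. A fold change understates the change of low genes. Levels of different genes are not per length and were not compared. Percentages of day 0 are ratios of mean normalised counts. The script was tested on simulated data. Figures were drawn with matplotlib 3.10.9. The genes and all lists were chosen with earlier results of these data known. Genes named from a list were at most 2 per direction, those called with the lowest p in the comparisons among day 0, syngeneic, allogeneic and Treg-treated cells. Alternatives were other scalings, filters, pseudocounts, blocks, weights and subsets of groups, leaving out libraries, and, chosen after seeing the data, leaving out day 0 libraries, a covariate for the library mean and exchanging the labels of CD4 and Treg day 0. An item of the lymph node entry list is not reported here and was left out of its counts.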

Additional observations from a re-analysis of the deposited data

Results flagged for a closer look

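Of 28 groups of 4 libraries of the 7 genes, 3 had 1 library far from the other 3 by Dixon's criterion at the 95% level, where chance flags about 1 in 20. Ccr7 was at 561 in CD8 allogeneic replicate JL019-1 and between 471 and 485 in the others. Klf2 was at 2615 in CD8 allogeneic replicate JL027-1 and between 6314 and 6608 in the others, and without it the change from day 0 was -0.37 in place of -0.70. S1pr1 was at 11779 in CD8 Treg-treated replicate JL019-1 and between 5686 and 6325 in the others. Without it the difference from allogeneic CD8 cells was -0.82 (limma adjusted p = 0.26) in place of -0.58.

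The change of Igfbp4 between allogeneic and syngeneic recipients differed between CD8 and CD4 cells by 2.12 on the log2 scale (-5.02 in CD8 against -7.13 in CD4 cells, limma adjusted p = 0.0201 for the difference). All 4 allogeneic libraries of each cell type lay below all 3 syngeneic ones.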

How the results depend on the processing

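Over 147 results for single genes and 2947 alternatives, 2807 kept their direction and their side of the threshold or were called under neither, 72 crossed to being called, 60 lost the call and 8 reversed. In 88, a value called under neither changed sign. All 8 reversals came with the labels of CD4 and Treg day 0 exchanged, chosen after seeing the data because Foxp3 goes against them: Rflnb in syngeneic (1.27) and Dapl1 in Treg-treated (0.64) against day 0 CD4 cells, Igfbp4 (0.42) and Rflnb (1.45) in CD8 against CD4 cells at day 0, Dapl1 for CD8 minus CD4 in syngeneic against day 0 (-3.21), and Ccr7 (-2.64), Igfbp4 (-3.70) and Rflnb (-3.46) for Treg minus CD4 cells. Under this exchange the number of the 7 genes called was 3 in place of 6 for Treg-treated against day 0 CD4 cells, 2 in place of 1 for CD8 against CD4 cells at day 0, and, in place of 0, 3 and 2 for CD8 minus CD4 in syngeneic and allogeneic against day 0 and 4 for Treg minus CD4 cells. The number of the 7 genes called moved by over 1.5 times in the comparisons below, and single calls also crossed the threshold in others. For syngeneic against day 0 CD4 cells (3), 1 was called with the library mean as a covariate, 0 with only the groups compared, and 0 to 3 when 1 library was left out. For the same comparison in CD8 cells (1), quantile normalisation gave 3, array weights 4 and only the groups compared 2. Of all genes, 7403 were called there with array weights, against 4053 in the main model. For Treg-treated against allogeneic CD4 cells (4), the covariate gave 1 and leaving out a library 1 to 4. In CD8 cells (0) array weights gave 1 and leaving out a library 0 to 1. Of all genes, 321 were called in these CD8 cells with array weights, against 11 in the main model. Treg against CD4 cells at day 0 (3) had 6 with array weights and 6 with only the groups compared. Array weights called 2622 of all genes there, against 651 in the main model. CD8 against CD4 cells at day 0 (1) had 2 with array weights, 2 with the covariate, 3 with only the groups compared and 0 without any 1 library. With only the groups compared 1802 of all genes were called, against 556 in the main model. Of the differences between CD8 and CD4 cells, that in syngeneic against day 0 (0) had 1 with array weights and 0 to 1 without a library, that in allogeneic against syngeneic (1) had 2 with array weights, 0 with only the groups compared and 0 to 1 without a library, and that in the Treg effect (0) had 1 with array weights. In the same order, array weights called 2098, 4089 and 3389 of all genes, against 607, 779 and 1 in the main model. For Treg minus CD4 cells (0), array weights gave 3, the covariate 1, only the groups compared 1 and leaving out a library 0 to 1. Of all genes, 6563 were called for this difference with array weights, against 788 in the main model. The cause of these moves was not tested. Groups of 2 libraries at day 0 limit every comparison with it, and where 1 was left out the other was assumed to vary like the other groups.

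The main model did not pair samples, and whether a shared label means a shared recipient is not given. Deviations from the group means of samples that could share a recipient correlated by a median of 0.135 over 21 pairs (-0.319 to 0.442), and 11 exceeded 0.1. For pairs from different experiments the median was -0.019 over 213 pairs, and 44 exceeded 0.1. With the recipient as a block (consensus correlation 0.145), 1 of the 7 genes was called for Treg minus CD4 cells, Dapl1 (-1.80, limma adjusted p = 0.0483), and Klf2 was called for Treg against CD4 cells in treated recipients (-0.75, limma adjusted p = 0.0447). No other call changed under it, nor any under the replicate label or the experiment as a block.

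The number of all genes called also depended on the model. For Treg-treated against allogeneic CD4 cells 3710 ranged from 470 without Treg-treated replicate JL019-2 to 7960 with array weights. For CD8 cells 11 ranged from 0 to 321. For syngeneic against day 0 CD4 cells 2181 ranged from 235 with only the groups compared to 4215 with array weights. Centring libraries on their median moved the median change of all genes by 0.20 and the share of calls that were higher from 48.1% to 64.6% for Treg-treated against allogeneic CD4 cells, and that share from 76.0% to 53.8% for syngeneic against day 0 CD4 cells. The 7 genes kept their calls in both comparisons under it.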
